A study of Homo sapiens with 12 samples.

Results

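The effect of silencing AGO2 was examined in MDA-MB-231 cells that carried the miR-145-5p mimic, by setting the 3 arrays of the group sirnaAGO2+mimic145 against the 3 arrays of the group mimic145. These were 6 of the 12 arrays of the series, chosen by their labels and matched by replicate number. MDA-MB-231 is an established triple-negative breast cancer cell line of mesenchymal form. The mimic145 cells overexpressed miR-145 after transfection with a synthetic miR-145-5p precursor at 5 nM, and the sirnaAGO2+mimic145 cells received the same precursor and a Dicer-substrate siRNA against AGO2 at 500 pM for 72 h. The other groups were cntrl, with control oligonucleotides for the mimic and the siRNA, and sirnaAGO2, with the siRNA against AGO2. The protocol also names a negative control siRNA at the same dose, and the study refers to the cells without AGO2 silencing as control-siRNA cells, while the labels do not list the oligonucleotides group by group. The experiment was done in biological triplicate, the cells are 1 line, and the silencing was transient and partial.

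Argonaute proteins hold a microRNA and present its seed, the bases near its 5′ end, to complementary sites in messenger RNAs. They recruit the TNRC6 scaffold proteins, which bring in deadenylases, so that bound messages are translated less and decay faster. AGO2 is the member of the family with slicing activity on fully paired targets, and miR-145-5p is known as a growth- and migration-restraining microRNA that is low in many epithelial tumors.

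The mature sequence of the microRNA that the mimic supplies is shown because its seed decides which messages it can pair with. The capitals mark the seed, bases 2 to 8, and the entry lies at chr5:149430661-149430683 on the + strand of GRCh38.p14 (RefSeq):
hsa-miR-145-5p: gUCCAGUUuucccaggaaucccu
Of 2370 mature human microRNAs in the RefSeq table used, 1 held this seed, which was miR-145-5p itself. The sequence of the siRNA against AGO2 was not used here.

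Each value below is a log2 signal of a gene, the mean over its probes on a SurePrint G3 Human Exon array after quantile normalization over all 12 arrays. A gene was called when its limma adjusted p was under 0.05, in a fit of all 12 arrays with the 4 groups and the replicate number. Differences are log2(sirnaAGO2+mimic145) minus log2(mimic145), so that a negative value is lower after silencing. Each slide held 2 arrays, and no slide held both groups: mimic145 shared its slides with cntrl and sirnaAGO2+mimic145 with sirnaAGO2, so that slide and silencing cannot be told apart by comparing slides. Both groups lay at position 2 of their slides. Between 60.5% and 77.3% of the spots of the 6 arrays were well above background, and replicate 2 of sirnaAGO2+mimic145 lay farthest from the mean of its group, with an SD over genes of 0.28 against 0.19 to 0.23 for the other 5 arrays. Of the probes of 9 genes known to be high in this line, 90.5% were well above background on all 6 arrays, from 100% for AXL to 30% for SPARC, and PLAU was the 1 called. Of the probes of 10 luminal and epithelial markers, 51.0% were well above background on all 6 arrays. PGR and FOXA1, markers of luminal cells, had 0 such probes, while KRT19, GATA3 and XBP1, also counted as luminal, had all of theirs. KRT19 was the 1 called of the 8 luminal markers tested.

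AGO2, the target of the siRNA, was about halved at the level of its transcript. Its log2 signal was 9.44, 9.36 and 9.39 in mimic145 replicates 1 to 3 and 8.27, 8.35 and 8.41 in sirnaAGO2+mimic145. All 3 silenced arrays lay about 1 log2 unit below all 3 arrays with the mimic alone. The difference was -1.06 (SE 0.08, limma adjusted p = 0.000783), which leaves 48.1% of the transcript, and the two-sided exact permutation test of 3 arrays against 3 gave p = 0.1, the smallest value this size allows. As the RNA came from whole cultures, fewer cells with the transcript and less transcript per cell cannot be told apart. All 19 kept AGO2 probes were lower on average and 18 of them in each of the 3 replicate pairs, with probe means from -2.22 to -0.08. Without the mimic the same siRNA gave -0.71 (sirnaAGO2 against cntrl), and the test of the difference between these effects had an adjusted p of 0.181 (limma).

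**Figure D1:**
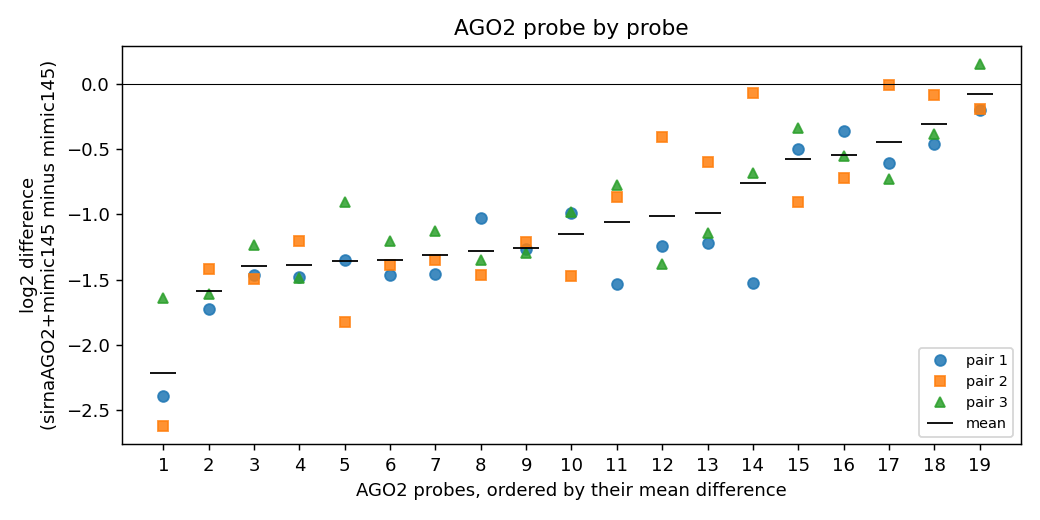
Difference between sirnaAGO2+mimic145 and mimic145 (log2, vertical axis) for each of the 19 AGO2 probes (horizontal axis, ordered by mean), with a symbol per replicate pair and a bar for the mean. Every probe mean lies below 0, from -2.22 to -0.08.

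The paralogs did not pass the test. AGO1 differed by 0.00 (SE 0.06), AGO3 by -0.10 (SE 0.08) and AGO4 by -0.03 (SE 0.07), and their groups overlapped. Of the TNRC6 scaffolds, which bind all Argonautes, TNRC6B rose by 0.40 (SE 0.08, adjusted p = 0.0315), with 7.83, 7.76 and 7.91 in mimic145 and 8.23, 8.14 and 8.33 after silencing. The TNRC6B groups did not overlap and 20 of its 21 probes were higher. TNRC6A (-0.03) and TNRC6C (0.05) did not pass. TNRC6B was the 1 gene called among 20 partners that load or bind Argonautes (5% against 4.32% of all genes). Its estimate stayed between 0.30 and 0.47 under 20 alternatives but was called in 5 of them, and with the 75th percentile scaling and in the authors' table it was not called, while in each of these settings another partner was called lower. Among 16 genes of microRNA processing 0 were called, 3 estimates lay above 0 and 13 below.

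Over all genes, 788 of 18253 (4.32%) were called, 342 higher (1.87%) and 446 lower (2.44%) after silencing. The median size of these differences was 0.44, 296 were over 0.5 and 29 over 1, and 16 of the 29 rested on fewer than 3 probes. All 788 went in the same direction in the 3 replicate pairs, and for 678 of them, 292 higher and 386 lower, the groups did not overlap, while of all genes 6.22% were higher and 8.57% lower without overlap. The count depended on the design: 3929 genes had an unadjusted p under 0.05, 100 were called in the fit without the replicate number and 0 when limma was fitted to the 6 arrays alone, with 2742 at an unadjusted p under 0.05. Leaving out a replicate number from all groups left 3 (replicate 1), 12 (replicate 2) and 0 genes (replicate 3), and leaving out 1 array of the 6 left 134 (mimic145 replicate 1) to 434 (sirnaAGO2+mimic145 replicate 2). A set of 85 genes, 48 lower and 37 higher, was called with the replicate number, without it, and with the slide as a random block in its place. Membership of this set is given below with the genes described.

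**Figure D2:**
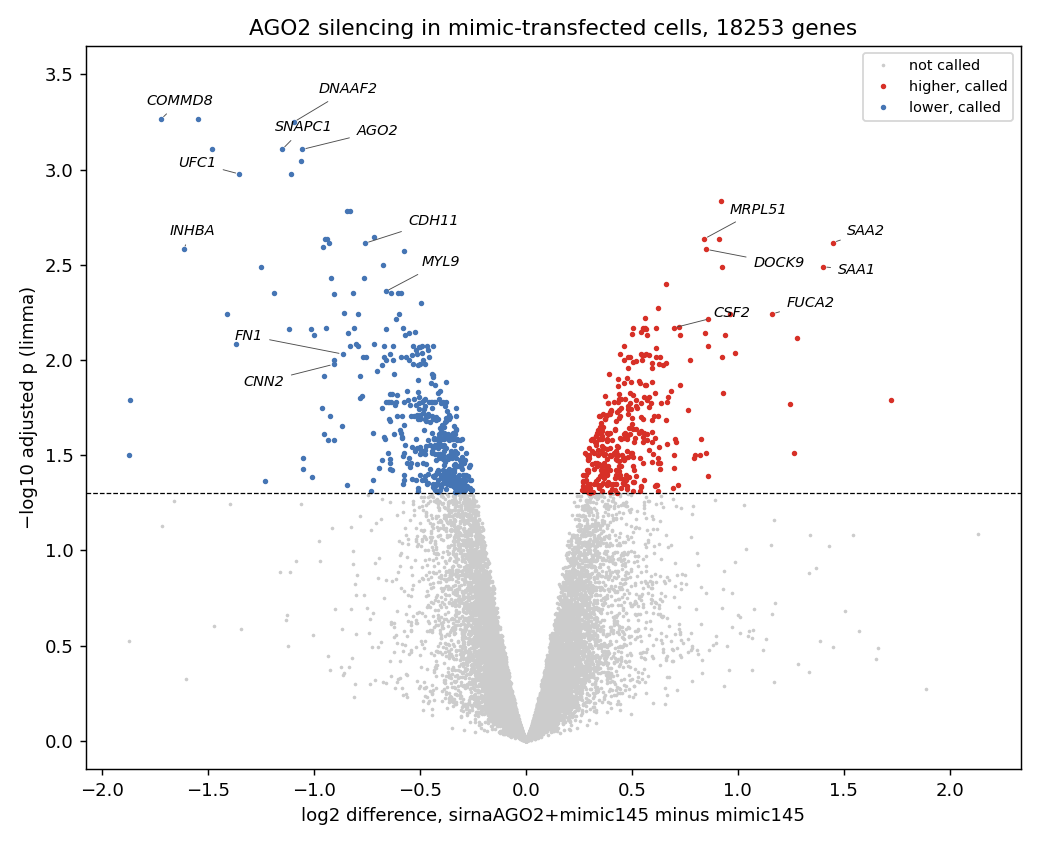
Each of the 18253 genes by its log2 difference, sirnaAGO2+mimic145 minus mimic145 (horizontal axis), and the −log10 of its limma adjusted p (vertical axis), with the 342 called higher in red and the 446 called lower in blue above the dashed line at 0.05. AGO2 lies among the falls with the smallest p, and SAA2 (1.45) and SAA1 (1.40) are the largest labelled rises.

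Among genes with at least 3 probes, the largest fall was that of COMMD8, a subunit of the COMMD complex that sorts cargo at endosomes. Its signal was 9.24, 9.26 and 8.79 in mimic145 and 7.21, 7.65 and 7.26 after silencing, a difference of -1.72 (SE 0.10, adjusted p = 0.000543) that leaves 30.3%. The groups lay more than 1 log2 unit apart. UFC1, the conjugating enzyme of the ubiquitin-like modifier UFM1, was at 11.28, 11.32 and 11.37 with the mimic alone and at 9.67, 10.21 and 10.02 after silencing (-1.35, SE 0.11). SNAPC1, a subunit of the complex that starts transcription of small nuclear RNA genes, fell by 1.15 (SE 0.08), from 10.35, 10.39 and 10.03 to 9.04, 9.19 and 9.08. In each of these genes the highest silenced array was below the lowest array with the mimic alone.

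Further falls of about 1 were those of POLR3GL, an RNA polymerase III subunit (-1.12, SE 0.14), SLC39A6, a zinc importer (-1.11, SE 0.09), DNAAF2, a dynein assembly factor (-1.10, SE 0.07), and FKBP3, a prolyl isomerase (-1.01, SE 0.13). COMMD8, UFC1, SNAPC1, POLR3GL, SLC39A6, DNAAF2, AGO2 and FKBP3 all belong to the set of 85 genes, and each was also called without the mimic, with -1.67, -1.23, -1.26, -1.51, -1.23, -0.91, -0.71 and -0.67 in sirnaAGO2 against cntrl. The test of the difference between the effects with and without the mimic gave adjusted p values from 0.181 to 0.881 for these 8 genes (limma). Both comparisons used siRNA against AGO2, so that loss of AGO2 and other effects of the siRNA cannot be told apart here. IQGAP1, a scaffold of the actin cortex read by 38 probes and named after its values were seen, gave -0.84 with the mimic and -0.92 without it and is also in the set of 85.

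RGS2, a regulator of G protein signaling, fell from 8.15, 7.93 and 7.49 to 7.05, 6.99 and 6.65 with the mimic (-0.96, SE 0.09, adjusted p = 0.00256), without overlap, and gave -0.38 without it. KITLG, the ligand of the receptor KIT, gave -0.96 (SE 0.16) and -0.39. The tests of the difference between the effects had adjusted p values of 0.0986 for RGS2 and 0.266 for KITLG (limma). RGS2 belongs to the set of 85 genes and KITLG does not. LOC389705 fell by 1.05 on 3 probes, with overlapping groups and an SD of 1.10 over the silenced arrays.

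Among genes with at least 3 probes, the largest rises were those of SAA2 and SAA1, which are acute-phase serum amyloids, small apolipoproteins made in inflammation. SAA2 stood at 9.23, 9.74 and 9.87 in mimic145 and at 10.97, 10.71 and 11.51 after silencing, 2.73-fold higher (log2 1.45, SE 0.14, adjusted p = 0.00242). SAA1 rose 2.65-fold (log2 1.40, SE 0.15), from 10.94, 11.06 and 10.92 to 12.27, 12.10 and 12.77. SAA4 (0.73) and the readthrough transcript SAA2-SAA4 (0.92) were also called, each on 2 probes. None of these groups overlapped. The genes are close in sequence and SAA2-SAA4 overlaps its neighbors, so that their signals may be shared. For SAA2-SAA4 the effect without the mimic was -0.16 and the difference between the effects, 1.08, passed its test (adjusted p = 0.0350, limma). SAA1 and SAA2 gave 0.51 and 0.43 without the mimic, the other sign, and were not called there. Their differences between the effects did not pass (adjusted p = 0.0996 for SAA1 and 0.0817 for SAA2, limma). SAA1 and SAA2 belong to the set of 85 genes.

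FUCA2, a secreted fucosidase, rose 2.24-fold (log2 1.16, SE 0.14), from 8.68, 9.35 and 9.07 to 10.24, 10.29 and 10.06. DOCK9, an exchange factor that activates CDC42, rose 1.80-fold on all 59 of its probes (log2 0.85, SE 0.08, adjusted p = 0.00262), with 8.26, 8.23 and 8.29 in mimic145 and 9.36, 8.92 and 9.05 after silencing. The FUCA2 and DOCK9 groups were apart by more than 0.5. CBFB, the partner of the RUNX factors, rose by 0.85 (SE 0.11), MRPL51, a mitochondrial ribosomal protein, by 0.84 (SE 0.08) and SLC26A2, a sulfate transporter, by 0.93 (SE 0.10). SPTLC3, a subunit of the enzyme that starts sphingolipid synthesis, rose by 0.91 (SE 0.09), ASB2, a ubiquitin ligase adaptor, by 0.86 (SE 0.10) and LXN, a carboxypeptidase inhibitor, by 0.86 (SE 0.11). CTSW, a cathepsin, gave 0.92 (SE 0.13) and PSG5, of a family of near-identical genes, 0.93 (SE 0.15). In all 10 genes the 2 groups did not overlap, and all but CTSW and PSG5 belong to the set of 85.

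**Figure D3:**
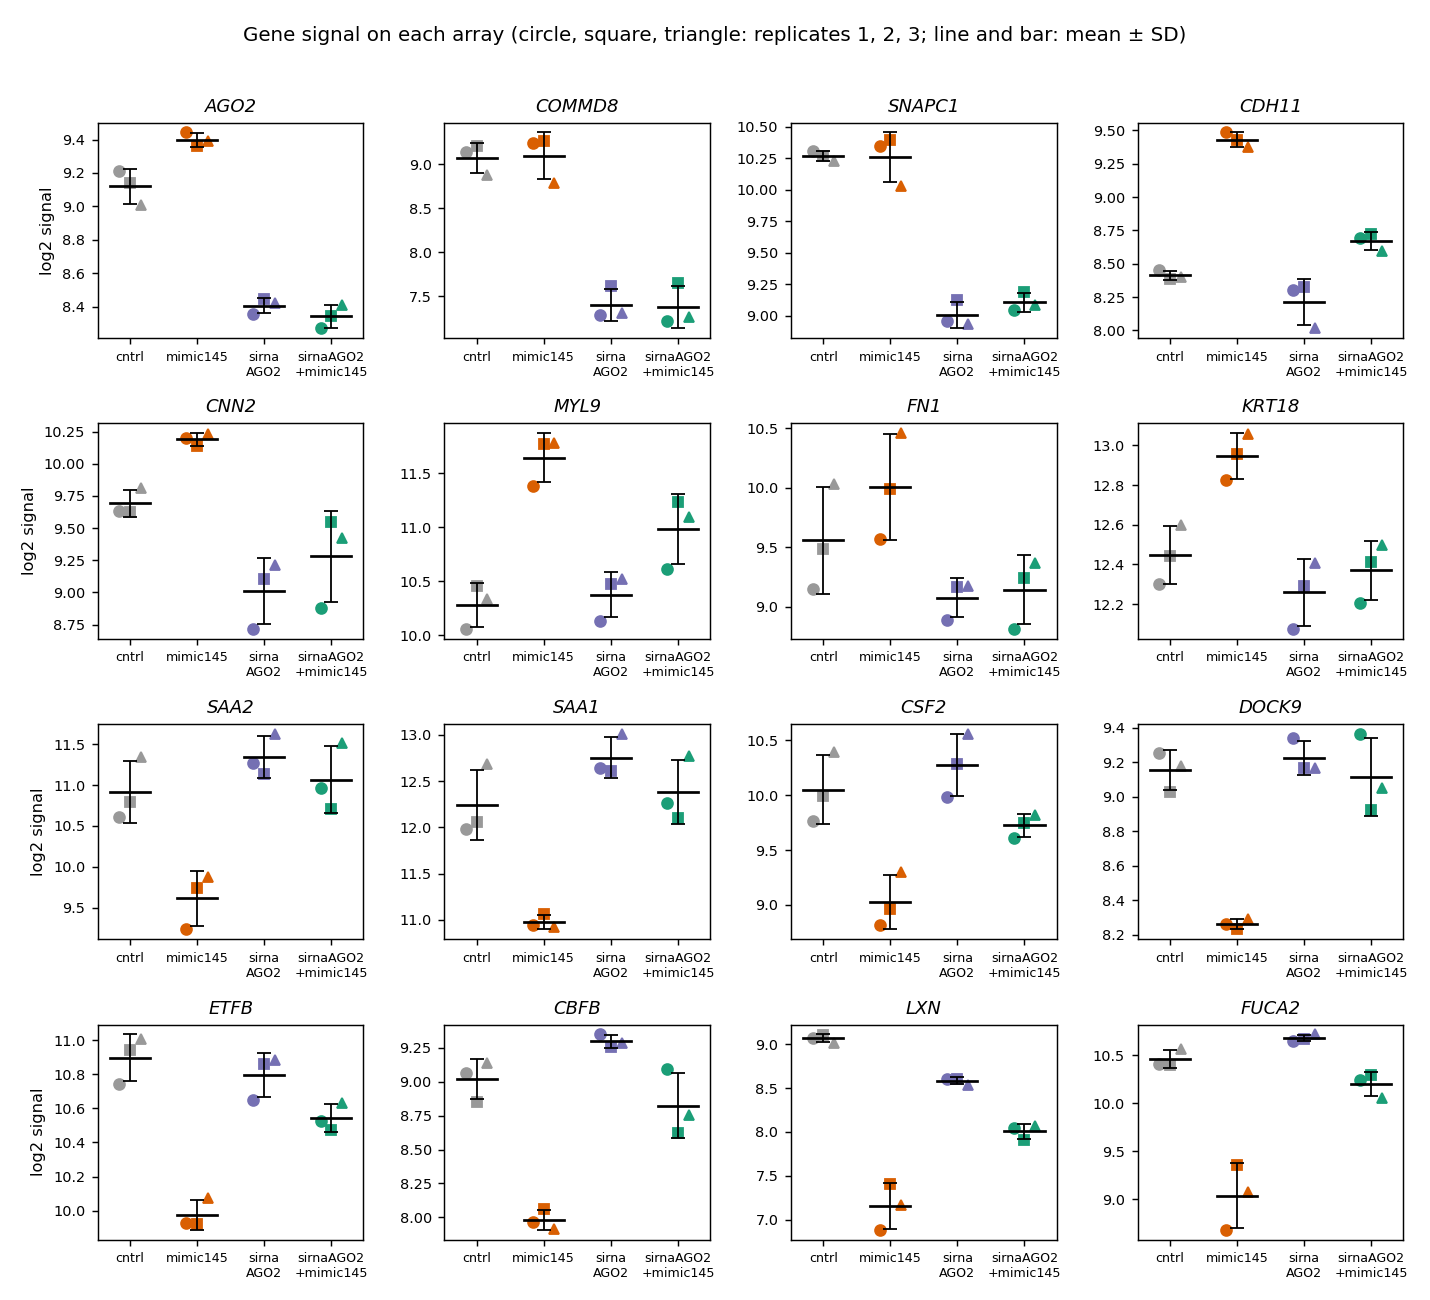
Log2 signal (vertical axes) of 16 genes on the 12 arrays by group, with a symbol per replicate and the mean ± SD over 3 arrays. AGO2, COMMD8 and SNAPC1 are low in both silenced groups, CDH11 and MYL9 are highest with the mimic alone and lower with the mimic and the siRNA, and SAA2, SAA1, DOCK9, ETFB, CBFB, LXN and FUCA2 are lowest in mimic145.

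Silencing without the mimic was measured on the other 6 arrays, which share no array with the comparison above but do share slides and replicate numbers. There, 471 genes were called (2.58%), of which 162 (0.888%) were higher and 309 (1.69%) lower. Of the 788 genes called with the mimic, 581 (73.7%) had the same sign without it, against 53% of all genes tested. Genes called in the same direction with and without the mimic numbered 121, which is 15.4% of the first list and 25.7% of the second, and 92 of them were falls. In the opposite direction there were 2. The effect was the larger one with the mimic for 726 of the 788, a share that the choice of these genes favors. The difference between the effects passed its test for 2 genes (0.011%), 1 in each direction (0.00548% each), of which SAA2-SAA4 was the positive one, and for 3061 (16.8%) at an unadjusted p under 0.05.

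**Figure D4:**
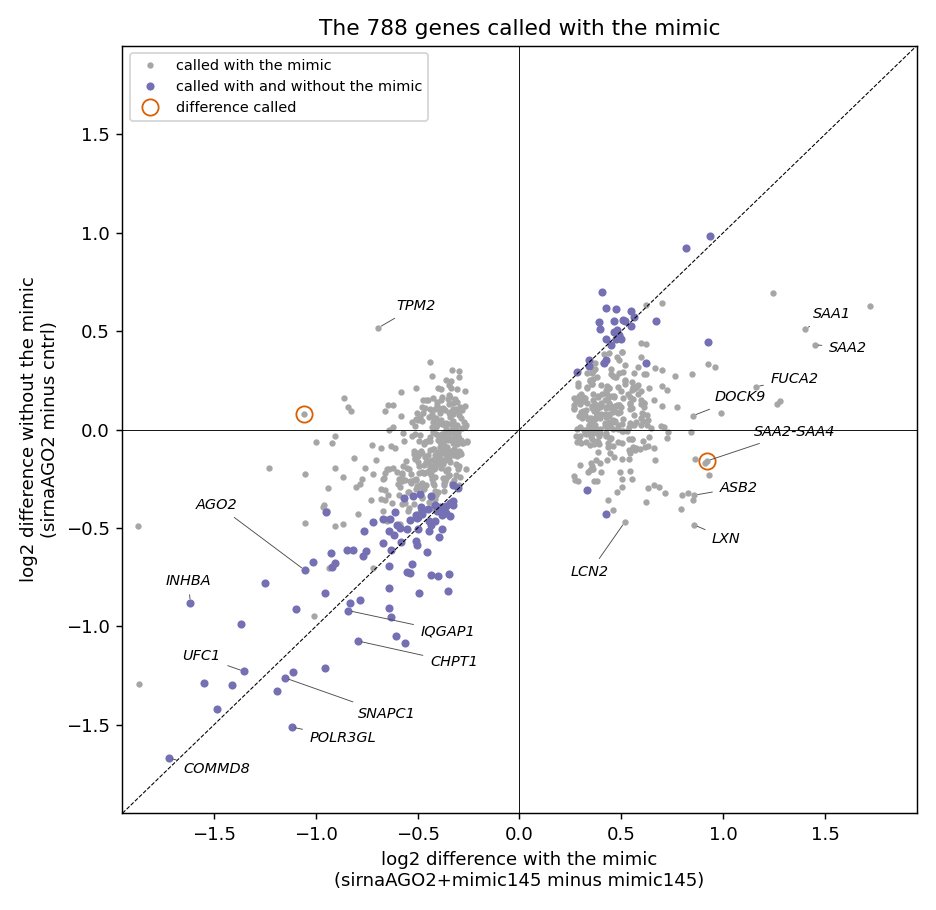
The 788 genes called with the mimic, by their log2 difference with the mimic (horizontal axis) and without it (vertical axis), the dashed line marking equal effects. Falls called with and without the mimic, 92 of the 446, run along the line to COMMD8. The median without the mimic was -0.17 for all falls and 0.10 for all rises, against -0.44 and 0.46 with it. The circles mark the 2 genes whose difference between the effects was called.

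The study's list of 36 targets of miR-145-5p was chosen on these samples, as genes lowered by the mimic, and the mimic145 arrays enter both that choice and the present comparison, so that its direction is not independent evidence. Of the 36 genes 9 were called higher and 0 lower, against 1.87% and 2.44% of all genes, and 32 of 36 estimates were above 0. The median difference was 0.29 with the mimic and -0.08 for silencing without it. CBFB gave 7.96, 8.06 and 7.92 in mimic145 and 9.09, 8.62 and 8.76 after silencing. GOLM1, a Golgi membrane protein, rose by 0.63 (SE 0.09) from 8.41, 8.44 and 8.55 to 9.27, 9.02 and 9.0. ADD3, an adducin that caps actin filaments, rose by 0.63 (SE 0.09), and APH1A, a gamma-secretase subunit, by 0.44 (SE 0.07). The groups of all 4 genes were apart, and CBFB, GOLM1 and ADD3 belong to the set of 85. The other called genes were NUDT1 (0.50), MTMR14 (0.43), FAM3C (0.40), NIPSNAP1 (0.35) and MEST (0.35), named after their values were seen. Without the replicate number in the fit, 3 of the list were called.

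A list of 57 genes widely named as direct targets, recalled from general knowledge, gave another picture. There 5 genes were called higher and 1 lower (10.5% against 4.32% of all genes), with a median of 0.01. CBFB, GOLM1, ADD3 and NUDT1 are on both lists, so that their part in this share is not independent evidence either. FZD7, a WNT receptor named after its values were seen, rose by 0.47 on 1 probe with overlapping groups. NEDD9, a docking protein of focal adhesions, fell from 8.83, 8.55 and 8.60 to 8.04, 7.85 and 7.76 (-0.78, SE 0.12, adjusted p = 0.0121). The NEDD9 groups did not overlap, its effect without the mimic was -0.87 (adjusted p = 0.0128, limma), and it belongs to the set of 85.

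Of the 5 genes that the study followed by RT-qPCR, also chosen on these samples, 3 were called, all higher: DOCK9, ETFB and DECR1. This is 60% against 4.32% of all genes (1.87% higher). The study chose the 5 as genes lowered by the mimic, and the mimic145 arrays enter both comparisons, so that their direction is not independent evidence. ETFB, the electron transfer flavoprotein subunit of fatty acid oxidation, rose by 0.57 (SE 0.07, adjusted p = 0.00690), from 9.93, 9.92 and 10.08 to 10.53, 10.47 and 10.63. DECR1, a reductase for unsaturated fatty acids, rose by 0.49 (SE 0.08, adjusted p = 0.0131), from 9.95, 10.10 and 10.08 to 10.63, 10.51 and 10.48. All silenced arrays lay above all arrays with the mimic alone, and DOCK9, ETFB and DECR1 belong to the set of 85. The mimic itself, against cntrl, gave -0.92 for ETFB, -1.01 for DECR1 and -0.89 for DOCK9, comparisons that share the mimic145 arrays. VDAC3 differed by 0.28 (adjusted p = 0.0543) and GFM2 by 0.29 (adjusted p = 0.0987, limma), short of the threshold. FSCN1, the actin bundler, differed by 0.45 (SE 0.12, adjusted p = 0.0676, limma), with 4 of its 7 probes never above background in either group, and F11R, a junction adhesion molecule, by -0.01 (SE 0.10).

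With ETFB and DECR1, CPT2, which imports fatty acids into mitochondria, was the third gene called among 29 of fatty acid oxidation. It stood at 7.13, 7.21 and 7.11 in mimic145 and at 7.73, 7.51 and 7.51 after silencing (0.43, SE 0.07, adjusted p = 0.0167). No member was called lower, 18 estimates lay above 0 and 11 below, and the median was 0.03. The 3 called members are 10.3% of the list, against 1.87% called higher of all genes. The study chose ETFB and DECR1 on these samples as genes lowered by the mimic, so that this share is not independent evidence. Without overlap of the groups 5 members were higher and 4 lower, while of all genes 6.22% were higher and 8.57% lower. With normexp 4 members were called higher and 2 lower.

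Inflammatory genes gave 6 rises and 1 fall among 37 cytokines and NF-kB response genes, 18.9% called against 4.32% of all genes (1.87% higher and 2.44% lower). CSF2, the growth factor of granulocytes and macrophages, rose 1.62-fold (log2 0.70, SE 0.09, adjusted p = 0.00678), from 8.81, 8.97 and 9.30 to 9.61, 9.75 and 9.82. LCN2, an iron-binding acute-phase protein, rose by 0.52 with overlapping groups, and TNF by 0.35. PTX3, a soluble pattern receptor, went the other way, from 9.53, 9.69 and 9.29 to 8.50, 8.98 and 8.55 (-0.83). LCN2, TNF and PTX3 were named after their values were seen. The estimates of 23 of the 37 genes were above 0 and the median was 0.10. In the fit without the replicate number, SAA1 and SAA2 were the members still called. These genes are close in sequence and their signals may be shared, yet each counts as a separate member among the 6 rises. The mimic alone, with the mimic145 arrays in common, gave -1.30 for SAA2, -1.27 for SAA1, -1.03 for CSF2, -1.51 for LCN2, 1.18 for PTX3 and 0.39 for TNF. Of the 4 risers with a promoter in the RefSeq table (250 bases before to 50 after the start), LCN2 held a kappaB site, as did PTX3, while 11.3% of 35116 promoters held one on either strand.

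The called actin and migration genes were mostly lower: 8 of 60 were called lower and 2 higher, against 2.44% and 1.87% of all genes. The estimates of 37 genes lay below 0 and of 23 above, with a median of -0.09. Without overlap of the groups 12 were lower and 9 higher, while of all genes 8.57% were lower and 6.22% higher. CNN2, a calponin that binds actin and myosin, fell from 10.20, 10.13 and 10.23 to 8.88, 9.55 and 9.42 (-0.91, SE 0.13, adjusted p = 0.0105). MYL9, the myosin light chain of contractile fibers, fell from 11.38, 11.77 and 11.77 to 10.62, 11.23 and 11.09 (-0.66, SE 0.07, adjusted p = 0.00436). VCL, vinculin, which ties actin to adhesions, fell from 10.76, 10.67 and 10.80 to 10.13, 9.99 and 10.22 (-0.63, SE 0.09, adjusted p = 0.01). In these 3 genes the groups did not overlap. TPM2 (-0.69), PFN2 (-0.66), RHOB (-0.65, 1 probe), TAGLN (-0.64) and CTTN (-0.31) were also called, and of these only the PFN2 groups did not overlap. ADD3 and MYL12B (0.35) were the members that rose. Apart from CNN2, ADD3, MYL9 and VCL, these genes were named after their values were seen.

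The fallers differed in what silencing did without the mimic. CNN2 gave -0.68 and was called, while MYL9 gave 0.09, TPM2 0.52 and TAGLN -0.00, and were not. The test of the difference for MYL9 had an adjusted p of 0.0511 (limma). The mimic against cntrl, with the mimic145 arrays in common, gave 1.36 for MYL9, 1.33 for TPM2, 1.08 for TAGLN, 0.50 for CNN2 and 0.48 for VCL. Without the replicate number CNN2 and ADD3 were the members called. Of 4 fallers with a promoter in the table, CNN2 was the 1 with a CArG box, the site that serum response factor binds in contractile genes. It is shown with that motif in capitals (chr19:1026358-1026657, + strand, GRCh38.p14, RefSeq), and 1.29% of all 35116 promoters held such a box on either strand:
CNN2: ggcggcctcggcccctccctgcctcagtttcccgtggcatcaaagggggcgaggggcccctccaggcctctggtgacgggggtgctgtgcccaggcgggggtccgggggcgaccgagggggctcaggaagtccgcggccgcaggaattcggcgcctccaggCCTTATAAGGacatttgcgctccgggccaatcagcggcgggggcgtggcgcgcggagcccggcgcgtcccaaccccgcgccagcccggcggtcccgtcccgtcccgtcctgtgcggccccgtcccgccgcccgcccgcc

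Of 24 genes that YAP and TAZ are known to raise, 3 were called, all higher (12.5% against 1.87% of all genes), with a list median of -0.04. CCN2, a matricellular growth factor, rose from 8.81, 9.14 and 9.46 to 9.53, 9.48 and 9.82 (0.48, SE 0.09, adjusted p = 0.0260), and its groups were narrowly apart. ANKRD1, a muscle and stress protein, rose by 0.55 (SE 0.11) and CCN1 by 0.43 (SE 0.09), both higher in all 3 pairs, the ANKRD1 groups overlapping. CCN2 was also called without the mimic (0.51), while ANKRD1 gave -0.25 there. None of the 3 was called without the replicate number. CCN2 and ANKRD1 both have a promoter in the table and both hold the letters CATTCC, to which TEAD factors bind, on the strand opposite to the gene, as GGAATG in capitals below, where 14% of all promoters held them on either strand (chr6:131951323-131951622 and chr10:90921038-90921337, - strand, GRCh38.p14, RefSeq):
CCN2: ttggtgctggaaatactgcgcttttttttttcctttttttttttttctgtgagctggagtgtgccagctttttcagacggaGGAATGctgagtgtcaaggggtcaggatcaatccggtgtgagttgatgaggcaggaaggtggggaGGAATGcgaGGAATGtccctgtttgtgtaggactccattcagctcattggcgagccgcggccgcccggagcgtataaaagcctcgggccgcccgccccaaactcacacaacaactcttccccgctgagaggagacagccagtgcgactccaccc
ANKRD1: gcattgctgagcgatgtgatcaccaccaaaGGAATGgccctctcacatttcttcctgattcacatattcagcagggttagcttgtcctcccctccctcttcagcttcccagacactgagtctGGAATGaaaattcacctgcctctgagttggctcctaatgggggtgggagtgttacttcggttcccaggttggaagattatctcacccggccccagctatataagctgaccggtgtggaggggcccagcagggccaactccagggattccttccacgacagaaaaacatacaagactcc

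Among 29 genes of the epithelial-mesenchymal transition 4 were called, all lower (13.8% against 2.44% of all genes). FN1, fibronectin, fell from 9.57, 9.99 and 10.46 to 8.81, 9.24 and 9.37 on all 50 probes (-0.87, SE 0.12, adjusted p = 0.00930). KRT18, KRT8 and KRT19, the keratins of simple epithelia, also fell, KRT18 from 12.83, 12.96 and 13.06 to 12.21, 12.41 and 12.50 (-0.57, SE 0.06), KRT8 by 0.58 (SE 0.13) and KRT19 by 0.28 (SE 0.07). For all 4 genes the groups were apart, and none of them was called without the replicate number. The fallers held 1 mesenchymal and 3 epithelial genes, and the median of the list was 0.01. CDH11, a mesenchymal cadherin and the 1 called of 35 cadherins, fell from 9.48, 9.43 and 9.38 to 8.69, 8.72 and 8.60 (-0.76, SE 0.07, adjusted p = 0.00243), and belongs to the set of 85. LAMB3 (-0.39) and LAMB1 (-0.26), laminin chains, were the 2 called of 41 integrins and laminins, and COL4A5 (-0.29) the 1 called of 44 collagens. ADAM19 (0.33) and PLAU (0.42), both proteases, rose among 30 proteases of invasion and their inhibitors. The shares called were 2.86% of the cadherins, 4.88% of the integrins and laminins, 2.27% of the collagens and 6.67% of the proteases, against 4.32% of all genes.

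Signaling and growth genes moved in small numbers. Of 28 immediate early genes 4 were called, all lower (14.3% against 2.44% of all genes): SPRY2 (-0.73, 2 probes) and DUSP4 (-0.44), feedback inhibitors of MAPK signaling, EREG (-0.58), a ligand of EGFR, and FOSL2 (-0.52), a subunit of AP-1. The median of this list was -0.16, the EREG groups overlapped, and 0 members were called without the replicate number. CDKN1A, a cyclin-dependent kinase inhibitor, fell by 0.44 (SE 0.09) and CCND1, cyclin D1, by 0.31 (SE 0.06), the 2 called of 20 cyclins and inhibitors, and CDKN1A was the 1 called of 26 p53 targets. CCNA2 (0.60) and HMMR (0.62) rose among 63 mitosis genes, and GMNN (0.56) and ASF1B (0.44) among 65 DNA replication genes, of which 51 estimates were above 0 with a median of 0.12. INHBA, the activin chain, fell by 1.62 on 1 probe (in the set of 85) and ACVR2B, an activin receptor, rose by 0.39, the 2 called of 37 TGF-beta and SMAD genes. HIF1A, the oxygen-regulated transcription factor, fell by 0.53 (SE 0.11), the 1 called of 39 glycolysis and hypoxia genes. The shares called were 10% of the cyclins and inhibitors, 3.85% of the p53 targets, 3.17% of the mitosis and 3.08% of the DNA replication genes. They were 5.41% of the TGF-beta and SMAD genes and 2.56% of the glycolysis and hypoxia genes, all beside 4.32% of all genes.

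**Figure D5:**
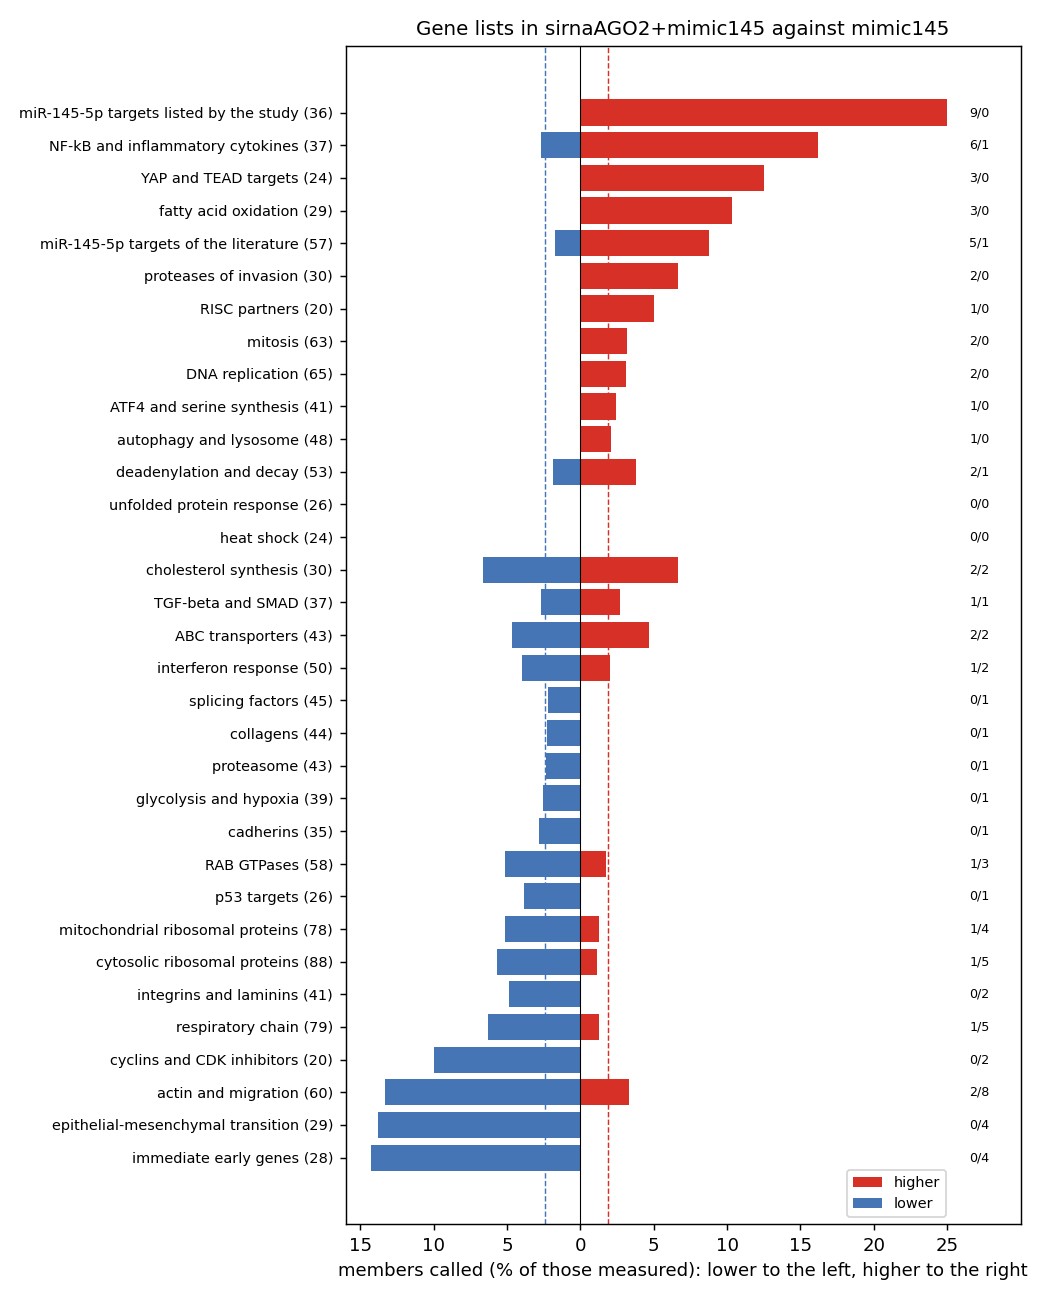
Percent of measured members called higher (right) or lower (left) after silencing, for each gene list with at least 20 measured members (number in parentheses; counts higher/lower at the right), with dashed lines at the 1.87% and 2.44% of all genes. The study's targets (9 of 36) and the inflammatory genes (6 of 37) reach farthest to the right, and the immediate early genes (4 of 28) farthest to the left.

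In large protein complexes most estimates lay slightly below 0 and few members were called. Of 88 cytosolic ribosomal proteins 80 estimates lay below 0 (median -0.14), of 78 mitochondrial ribosomal proteins 64 (-0.15), of 79 respiratory chain subunits 66 (-0.14) and of 43 proteasome subunits 32 (-0.11), while 9091 of all 18253 genes lay below 0. Calls numbered 5 lower and 1 higher, 4 and 1, 5 and 1, and 1 and 0. In the same order 6.82%, 6.41%, 7.59% and 2.33% of the members were called, against 4.32% of all genes. Without the replicate number 0 members of these lists were called lower. RPL8 fell by 0.40 (SE 0.07), from 13.01, 12.93 and 13.11 to 12.59, 12.62 and 12.64. MRPL51 and NDUFB5, a complex I subunit, rose, both in the set of 85, NDUFB5 from 9.50, 9.50 and 9.55 to 10.05, 10.03 and 9.98 (0.50, SE 0.06, adjusted p = 0.00678). RPL39L, a ribosomal paralog of near-identical sequence, rose by 0.55. Signal level moved with these estimates: 86 of the 88 cytosolic and 32 of the 78 mitochondrial ribosomal proteins, 64 of the 79 respiratory chain subunits and 32 of the 43 proteasome subunits were among the 1826 genes of highest signal, whose median difference was -0.04, against 0.06 in the 1826 of lowest signal. With signals scaled to the 75th percentile, the medians of the 4 complexes ran from -0.17 to -0.13. The part of signal level in the result was not tested.

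The COMMD family had 3 of 10 members called lower (30% against 2.44% of all genes): COMMD8, COMMD1 (-0.31, SE 0.06) and COMMD7 (-0.29, SE 0.06). RNA polymerase III also had 3 of 10 called lower, among them POLR3GL and POLR3D (-0.30, SE 0.07), with 8 of 10 estimates below 0. Without the replicate number 1 member of each list was still called. Under 20 alternatives COMMD1 was called in 7, COMMD7 in 5 and POLR3D in 3. POLR3D gave 8.53, 8.59 and 8.50 in mimic145 and 8.24, 8.24 and 8.25 after silencing. The groups did not overlap. COMMD1, COMMD7 and POLR3D gave between -0.18 and 0.30 without the mimic and were not called there.

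Genes of messenger RNA decay, the step that follows Argonaute binding, gave 2 rises and 1 fall among 53. The shares called of this list (5.66%), of the interferon response (6%), of the RAB genes (6.9%) and of the ABC transporters (9.3%) stand beside 4.32% of all genes. DCP2, the decapping enzyme, rose by 0.49 (SE 0.09), with 0.48 without the mimic, EXOSC7 rose by 0.33 and EXOSC3, another exosome subunit, fell by 0.55. In the interferon response, STAT2 rose by 0.46 (SE 0.07) and OASL and IFITM3 fell by 0.37 each, the 3 called of 50. RAB7A, a late endosomal GTPase, rose by 0.45, while RAB12 (-0.45), RAB2B (-0.38) and RAB32 (-0.29) fell among 58 RAB genes. Of 43 ABC transporters ABCA1 (0.61) and ABCD4 (0.35) rose and ABCG2 (-0.67) and ABCA10 (-0.39) fell. CYP51A1 (-0.42) and SQLE (-0.38), enzymes of sterol synthesis, fell and HSD17B7 (0.29) rose among 30 cholesterol genes, which also hold ABCA1. Of 48 autophagy and lysosome genes 1 was called, higher. PCK2 (0.35) was the 1 called of 41 of ATF4 and serine synthesis, SF3A3 (-0.33) of 45 splicing factors and MT1F (0.67, 2 probes) of 9 metallothioneins, all 9 of which had estimates above 0. The metallothioneins are near-identical in sequence, so that their signals may be shared. The median of their list was 0.15 with the mimic and -0.18 without it. SF3A3 was called in 2 of 20 alternatives. The shares called were 13.3% of the cholesterol, 2.08% of the autophagy and lysosome and 2.44% of the ATF4 and serine synthesis genes. They were 2.22% of the splicing factors and 11.1% of the metallothioneins, against 4.32% of all genes. Of 24 cytosolic chaperones and 26 genes of the unfolded protein response 0 were called.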

How the data were processed

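The authors extracted intensities with Agilent Feature Extraction 10.7.3.1 from 1-color arrays; the deposited intensity used here is background-corrected within an array and not normalized between arrays. The authors also deposited log2 values, quantile normalized over 12 arrays and used as an alternative, in which each column followed its own array best, and its medians lay between 7.04 and 7.06. The submitters' processing notes name hg19, and no coordinates from the files were used.

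Control and outlier spots were left out, values under 1 set to 1, signals quantile normalized, log2 transformed and averaged per probe. Probes well above background on all 3 arrays of a group were kept (142929), and averaged per gene through the transcript accession. limma 3.58.1 (R 4.3.3, with the package data.table at version 1.17.8) fitted groups and replicate number; its two-sided p-values were adjusted over 18253 genes by Benjamini and Hochberg's method. The median standard error of a difference was 0.10, and the number of arrays limits precision. The replicate numbers were taken to pair the samples. For same-numbered arrays of the 2 groups, deviations from group means correlated at 0.331 to 0.362 across genes. Over all groups the same-numbered arrays ran from 0.148 to 0.576. Arrays of different number and group ran from -0.497 to 0.201, so that these ranges overlapped. Plots used Python 3.11.15, matplotlib 3.10.9 and pandas 2.3.3. The fit was tested on simulated data. Alternatives changed the scaling, background correction, probe filter and summary, blocks for replicate and slide, the arrays fitted, the test and its threshold, and left out replicates and arrays in turn.

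The comparison, the 41 gene lists and the naming rule were chosen with earlier results of these data known. The rule names the Argonautes, TNRC6 genes and genes of the study, the 12 largest rises and falls with at least 3 probes, up to 4 called genes per list, and genes called in the test of the difference. Genes outside it are marked in the text, and some genes that it names are not reported here.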

Additional observations from a re-analysis of the deposited data

Results flagged for a closer look

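The effect of silencing differed with and without the mimic, by the test of the difference itself, for SAA2-SAA4 (difference between the effects 1.08, adjusted p = 0.0350, limma). For 19 further genes picked by the naming rule, all 3 pairs went one way with the mimic and all 3 the other way without it. Their differences did not pass the test over all genes (adjusted p from 0.0511 to 0.143, limma). The genes searched were those of the naming rule, 97 of them called with the mimic. The share of all genes with such opposite pairs was not counted, so that the number 19 is not a result about these genes. The differences between the effects were negative for MYL9 (-0.76), POLR3D (-0.60), ATP5MC1 (-0.48), SF3A3 (-0.43), MRPL9 (-0.40), COMMD7 (-0.35) and NDUFS3 (-0.29). They were positive for APH1A (0.50), CPT2 (0.52), FSCN1 (0.63), NDUFB5 (0.65), ETFB (0.67), DECR1 (0.71), ANKRD1 (0.80), MT1F (0.82), ADD3 (0.93), SPTLC3 (1.08), ASB2 (1.19) and LXN (1.34). These genes were called with the mimic, apart from FSCN1, and the effects without the mimic ran from -0.48 for LXN to 0.30 for POLR3D.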

How the results depend on the processing

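The count of genes called (788) was 1185 with normexp, 1390 when every kept probe was above background on each of the 12 arrays (the strict filter), 357 with the median over probes, 100 with no replicate block, 90 with the slide as a random block and no replicate block, and 0 with the 6 arrays alone. It was 2216 by the methods' paired t-test at p of at most 0.05 and 0 after Benjamini-Hochberg, 296 with a log2 difference over 0.5, 121 at an adjusted p under 0.01, and 0 to 434 with a replicate or an array left out. Among 5 other settings it stayed within 1.5 times. AGO2 kept its direction throughout (-1.11 to -0.998 with a replicate or an array left out) but did not pass in the 6 arrays alone or in the paired test after adjustment (-1.06 in each), nor with a replicate left out of all groups. The 2 genes with a difference between the effects became 150 with normexp, 33 in the authors' table, 5 with no filter, 291 with the strict filter, 99 with an intensity trend, 30 with the slide as a random block and no replicate block, 1888 by the paired t-test unadjusted, and 0 when adjusted, with no replicate block, with the slide and the replicate block, and without any 1 replicate. All 97 called genes named kept their sign under every alternative, and 30 of them passed with no replicate block. Signs turned only in genes that were not called: F11R was 0.0083 with the 75th percentile, 0.019 with normexp and 0.013 in the authors' table, AGO4 0.00072 with normexp and 0.020 with the strict filter, TNRC6A 0.013, 0.0028 and 0.040 with normexp, the strict filter and the median over probes, and AGO1 -0.028 with no filter. With a replicate or an array left out, they ran from -0.17 to 0.082 for F11R, -0.11 to 0.015 for AGO4, -0.12 to 0.051 for TNRC6A, -0.032 to 0.021 for AGO1, -0.16 to 0.013 for AGO3 and -0.0044 to 0.095 for TNRC6C. The number of arrays and, for FSCN1 and other dim genes, the signal over background limit these results.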
